A study of Mus musculus with 12 samples.

Results

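Stmn2, Tubb3, Dcx, Gap43, Neurod1, Neurog3 and Sox3, a group of neuronal and neural fate genes, were followed in F9 cells, a mouse teratocarcinoma line. Their members were taken by gene symbol from the platform annotation, which gave 14 probe sets for the 7 genes, out of 37600 probe sets and 16509 named genes. The symbols had been picked with earlier results of these arrays known. Which values chose them is not recorded; they were taken to be the differences between genotypes and between treatments, so what follows describes these genes and does not test them afresh. Where a member passed the threshold in the fit over all 12 arrays, its p from that fit is not printed. All 14 probe sets were used and none was removed by a filter on low values.

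The study asked how F9 cells with and without the retinoic acid receptor alpha gene respond to all-trans retinoic acid (atRA) when no new protein is made. Cells of 2 labels, WT and RARaKO (the latter standing for a knockout of the receptor gene), were plated 16 h before treatment. Cycloheximide, which blocks translation, was given at 1 µg/ml to every group, controls included, from 30 min before. The 4 groups were WT with the ethanol vehicle (0.1%), WT with 1 µM atRA, RARaKO with vehicle and RARaKO with atRA, each for 7.5 h. Each group held 3 arrays, numbered as sets 2, 3 and 4. The labels do not say whether the RARaKO cells came from a single clone, how the gene was disrupted, or whether the sets were separate cultures. The p-values thus rest on array-to-array spread alone, part or all of which may be technical, and the number of arrays limits the precision.

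These genes mark successive steps toward a neuron. Sox3 belongs to the SoxB1 transcription factors that hold cells as neural progenitors, and Neurog3 and Neurod1 are basic helix-loop-helix (bHLH) factors that commit cells to neuronal or endocrine fates, pairing with E proteins and blocked by Id proteins. The products of Stmn2, Tubb3 and Dcx build or regulate the microtubules of young neurons, and that of Gap43 acts at the membrane of the growth cone. In cells that are not neurons many such genes, Stmn2 among them, are held down by the repressor REST. Retinoic acid is widely used to turn some lines of embryonal carcinoma cells toward neurons, a process of days that also needs new protein. Whether F9 cells take that route was not tested here.

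Each value is a distance, in units taken to be log2, from the median of that probe set across the 12 arrays, so levels of different genes cannot be set against each other. A coarse class of the lost level could be read from the decimals. It placed Gap43 and probe set 1435192_at of Sox3 at 8 or more and the other 12 probe sets between 4 and 8. Over every probe set 34.9% lay at 8 or more, including 82 of 99 probe sets of ribosomal protein genes and 0 of 27 of olfactory receptor genes. By the same class 14 of 15 marker genes of embryonal carcinoma cells and 1 of 10 markers of mature neurons lay at 8 or more. Neither list had a member that passed the test with atRA. In RARaKO against WT only Nefh of the neuron markers passed, in vehicle. Of 15 marker genes of extraembryonic endoderm 0 passed in any of the 5 comparisons, in which at most 3.12% of all probe sets passed. The single probe set of Rara, the targeted gene, was higher in the arrays labelled RARaKO (0.90 ± 0.09 log2 in vehicle), so it does not bear out the label, and every genotype direction rests on the label. Of 5 retinoic acid targets measured to check the treatment, all 5 rose with atRA in both genotypes, among them Cyp26a1 by 1.35 ± 0.08 in WT and 1.38 ± 0.08 in RARaKO. The RARaKO atRA array of set 2 had the widest spread over all probe sets, an SD of 0.201 against 0.128 to 0.162 in the others, and without it 3 of the 14 probe sets passed between genotypes in atRA in place of 5, while over all probe sets 776 passed in place of 1173. The 5' minus 3' difference of 4 control genes, a sign of RNA quality, lay between -0.123 and -0.0844 in WT vehicle. It lay between -0.0248 and 0.0178 in WT atRA, -0.0227 and 0.132 in RARaKO vehicle, and 0.0012 and 0.0897 in RARaKO atRA. It thus parted WT vehicle from WT atRA and from RARaKO vehicle, and its part in the results was not tested.

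The bases just before the transcription start are shown for Neurog3, Neurod1 and Tubb3, since a receptor bound by atRA would act through DNA and these are members whose differences are described below. RefSeq promoters (build GRCm38.p6) matched 4 of the 7 genes: Tubb3, Dcx, Neurod1 and Neurog3. Each line gives the 250 bases before the start, read 5′ to 3′ on the gene's strand: Neurog3 at chr10:62132840-62133089 (plus), Neurod1 at chr2:79456637-79456886 (minus) and Tubb3 at chr8:123411303-123411552 (plus). Both strands were searched, and capitals mark matches to TATAA, the TATA box core, to GGGCGG, a GC box, and to the E-box CAGCTG, the kind of site that bHLH factors bind. Other E-boxes searched, CAGATG and CACGTG, were in none of these 3 windows and in 14.4% and 6.02% of all.
Neurog3: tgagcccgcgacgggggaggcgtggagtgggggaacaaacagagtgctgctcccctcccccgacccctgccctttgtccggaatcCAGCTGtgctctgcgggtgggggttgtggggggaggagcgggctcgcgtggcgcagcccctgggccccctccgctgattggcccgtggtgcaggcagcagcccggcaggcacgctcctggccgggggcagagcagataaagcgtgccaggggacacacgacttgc
Neurod1: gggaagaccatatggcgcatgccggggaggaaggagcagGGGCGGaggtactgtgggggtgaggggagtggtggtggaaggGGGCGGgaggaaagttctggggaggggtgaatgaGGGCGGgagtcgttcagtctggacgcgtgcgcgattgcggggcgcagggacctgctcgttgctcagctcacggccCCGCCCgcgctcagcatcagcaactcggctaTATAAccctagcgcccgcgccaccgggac
Tubb3: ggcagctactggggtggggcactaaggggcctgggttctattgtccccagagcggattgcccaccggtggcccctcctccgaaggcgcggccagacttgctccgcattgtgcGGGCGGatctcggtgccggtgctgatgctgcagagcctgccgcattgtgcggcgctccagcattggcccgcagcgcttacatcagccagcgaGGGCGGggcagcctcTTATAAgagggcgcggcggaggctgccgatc
TATAA lay in the windows of Tubb3 and Neurod1, first at 31 and 29 bases before the start, and in 22.8% of all 32851 promoter windows of this length. Dcx has 2 windows in the table, not printed here, which hold TATAA first at 99 and 194 bases before their starts. In Tubb3 the TATAA matches of both strands overlap, as TTATAA. The GC box GGGCGG occurred at 2 places in Tubb3 and 4 in Neurod1, against 32.7% of all windows with at least 1. CAGCTG was found once in Neurog3, 165 bases before the start, and in 13.0% of all windows. The core motif of retinoic acid receptor sites, AGGTCA, was in none of the 3 windows nor in those of Dcx, and in 14.0% of all. Its direct repeats with a spacer of 2 or of 5 bases were each in 0.00913% of all windows. A match or its lack describes these letters only.

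RARaKO and WT cells differed in Stmn2, Tubb3 and Gap43 in both vehicle and atRA. Dcx differed in vehicle and Neurod1 in atRA, each on only 1 of its probe sets. With atRA, Sox3 rose on 1 of its probe sets and Neurog3 fell in WT, and Gap43 fell in RARaKO. These values went the same way in the other genotype without passing the threshold. No member probe set passed for the difference of the responses. Between the genotypes in vehicle, 5 of the 14 probe sets passed an adjusted p of 0.05 in a limma fit over all probe sets, as did 3.01% of all. Of these, 3 were higher in RARaKO (1.84% of all) and 2 lower (1.16%). In atRA 5 passed again (3.12% of all), with 3 higher (1.61%) and 2 lower (1.51%). The response to atRA in WT cells passed for 3 (0.569% of all), with 1 higher (0.484%) and 2 lower (0.0851%). In RARaKO 1 passed (0.263% of all), and it was lower (0.0479%). The arrays of the groups compared did not overlap for 6 of the 14 between genotypes in vehicle (22.4% of all probe sets) and for 8 in atRA (20.4%). For the response to atRA this held for 5 in WT (13.6% of all) and 5 in RARaKO (12.7%). At an unadjusted p under 0.05 the counts were 7 in vehicle (15.3% of all), 8 in atRA (17.9%), 6 in WT (7.27%) and 6 in RARaKO (8.2%). Since the members were picked on these comparisons, nothing is read from these shares. With the set number as a block the RARaKO count was 3, and the calls over all probe sets were 1972 in place of 1131 between genotypes in vehicle, 339 in place of 214 in WT, and 167 in place of 99 in RARaKO. The median difference over the 14 was -0.09 between genotypes in vehicle, against -0.01 over all probe sets, and -0.09 in WT and -0.14 in RARaKO with atRA, against -0.01 and -0.0040.

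**Figure D1:**
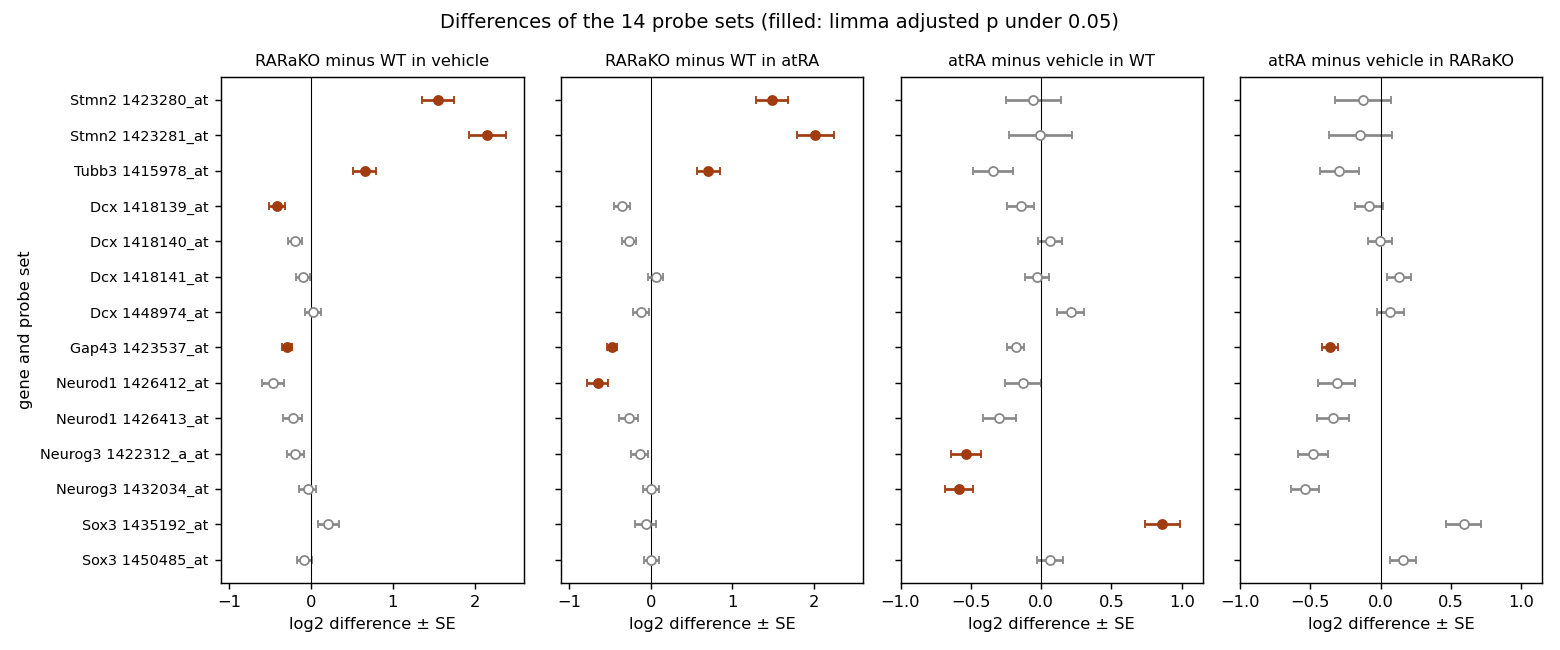
Log2 difference (x axis, points with standard error bars from the limma fit) of each of the 14 probe sets (y axis) in 4 comparisons, 3 arrays per group; filled points passed an adjusted p of 0.05 over all 37600 probe sets. Stmn2 and Tubb3 lie right of 0 in both genotype panels, while Sox3 (0.86) and Neurog3 (-0.54 and -0.59) stand out in the WT response panel.

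Stmn2, which encodes the tubulin-binding protein stathmin-2 of growing axons, differed most. On probe set 1423281_at the RARaKO vehicle arrays of sets 2, 3 and 4 gave 1.55, 1.71 and 0.82, and the WT vehicle arrays -0.75, -0.85 and -0.78. In atRA the RARaKO arrays gave 1.49, 1.49 and 0.68 and the WT arrays -0.91, -0.68 and -0.80. All 6 RARaKO arrays thus lay above all 6 WT arrays, and the RARaKO arrays of set 4 were the lowest of their genotype in either treatment. The means in vehicle were 1.36 ± 0.47 and -0.79 ± 0.05 (SD, n = 3), a difference of 2.15 ± 0.23 (SE), or 4.45-fold. In atRA the difference was 2.01 ± 0.23, or 4.04-fold. The second probe set, 1423280_at, gave the same direction with 1.02, 1.33 and 0.43 in RARaKO vehicle against -0.74, -0.71 and -0.43 in WT vehicle. Its differences were 1.55 ± 0.20 (2.93-fold) in vehicle and 1.48 ± 0.20 (2.79-fold) in atRA. Stmn2 passed the threshold on both probe sets and in both treatments, also without any single array of the 12.

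Retinoic acid made no difference to Stmn2 that could be seen at this spread. The response of 1423281_at was -0.0048 ± 0.23 in WT (adjusted p = 0.999) and -0.14 ± 0.23 in RARaKO (adjusted p = 0.921). For 1423280_at it was -0.06 ± 0.20 (adjusted p = 0.986) and -0.13 ± 0.20 (adjusted p = 0.920). The RARaKO arrays of set 4, given either vehicle or atRA, lay below those of sets 2 and 3 on both probe sets.

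Tubb3, the beta-tubulin found mainly in neurons, was also higher in RARaKO. Its single probe set gave 0.26, 0.39 and 0.63 in RARaKO vehicle and -0.42, -0.23 and -0.03 in WT vehicle. In atRA it gave 0.16, 0.03 and 0.21 in RARaKO and -0.89, -0.44 and -0.37 in WT. The genotypes did not overlap in either treatment. The difference was 0.65 ± 0.14 in vehicle, or 1.57-fold, and 0.70 ± 0.14 in atRA, or 1.63-fold, and both passed the threshold. In vehicle the call was lost without WT set 2, WT set 3, RARaKO set 3 or RARaKO set 4 (adjusted p up to 0.0930). In atRA it was lost without set 2 of either genotype or RARaKO set 4 (adjusted p up to 0.0537). The values with atRA were lower than with vehicle by 0.34 ± 0.14 in WT (adjusted p = 0.597) and by 0.30 ± 0.14 in RARaKO (adjusted p = 0.624), neither of which passed.

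**Figure D2:**
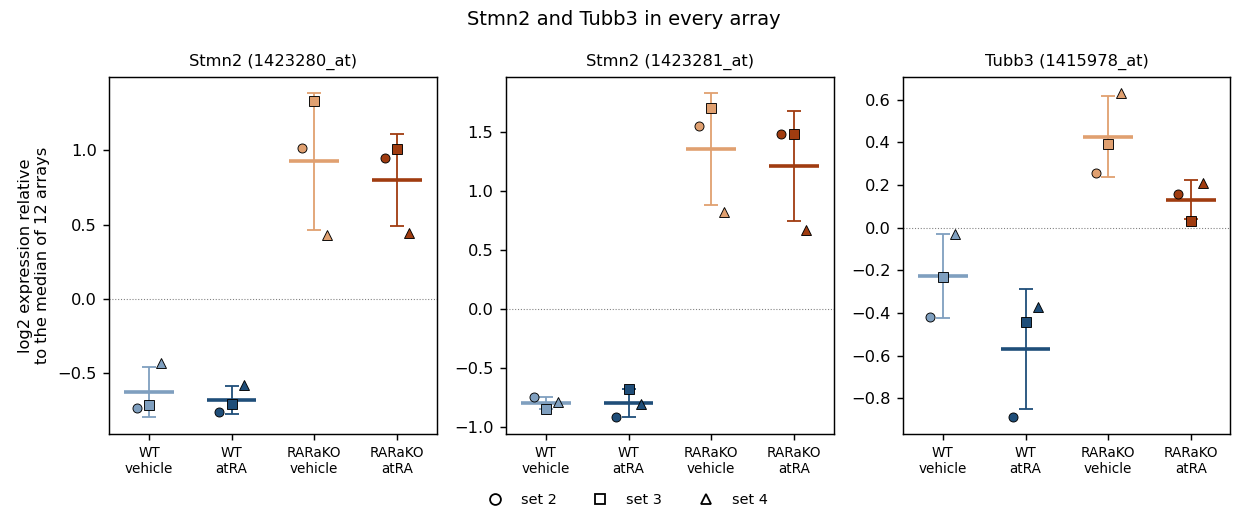
Log2 expression relative to the median of the 12 arrays (y axis, its own scale in each panel) of the 2 probe sets of Stmn2 and that of Tubb3 in the 4 groups (x axis); symbols are single arrays by set, bars the mean with its SD. The 6 RARaKO arrays of Stmn2 probe set 1423281_at reach from 0.68 to 1.71, and those of WT from -0.91 to -0.68.

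Of 11 measured glial markers 1 was higher in RARaKO, as Stmn2 was: Mobp, a myelin protein gene, by 1.40 ± 0.18 in vehicle and 1.39 ± 0.18 in atRA. No other glial marker passed, and 2 of the 11 lay at a level of 8 or more. Over all probe sets 1.84% were higher in vehicle and 1.61% in atRA. The median difference over the 11 was -0.08 in vehicle and 0.04 in atRA, against -0.02 and -0.0096 over all genes. The mean over the 11, Mobp included, lay between -0.0574 and 0.0357 in the RARaKO vehicle arrays and between -0.0520 and -0.0176 in those of WT vehicle. In atRA it lay between 0.0060 and 0.0898 in RARaKO and between -0.0695 and -0.0245 in WT. Of 10 markers of mature neurons 1 was higher in vehicle, Nefh, and none in atRA. The mean of these 10 lay between -0.0365 and 0.102 in RARaKO vehicle and between -0.0363 and 0.0285 in WT vehicle. The part of such cells in the Stmn2 and Tubb3 values was not tested. In these bulk samples a change in the number of cells that make a transcript and a change in transcript per cell cannot be told apart.

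Gap43, a gene of the growth cone, went the other way from Stmn2. Its single probe set gave -0.09, -0.01 and -0.05 in RARaKO vehicle and 0.28, 0.25 and 0.21 in WT vehicle. With atRA the values were -0.40, -0.43 and -0.40 in RARaKO and 0.01, 0.15 and 0.04 in WT. No 2 of the 4 groups overlapped, from WT vehicle at the top through WT atRA and RARaKO vehicle to RARaKO atRA. Gap43 was lower in RARaKO by 0.29 ± 0.06 in vehicle and by 0.47 ± 0.06 in atRA. It fell with atRA in RARaKO by 0.36 (± 0.06), or 1.28-fold, while the WT difference of -0.18 ± 0.06 did not pass (adjusted p = 0.380). The difference between these responses was -0.18 ± 0.08 (adjusted p = 1.00, unadjusted p = 0.0514).

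The genotype call of Gap43 in atRA held without any single array. That in vehicle was lost without any 1 of the WT vehicle arrays or of RARaKO vehicle sets 2 and 4 (adjusted p up to 0.0801). The response in RARaKO was lost without any 1 of its 6 arrays or WT vehicle set 3 (adjusted p up to 0.165), and when the fit held these 6 arrays alone (adjusted p = 0.179).

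Dcx encodes doublecortin, a microtubule protein of migrating neurons, and its 4 probe sets did not give the same picture. Probe set 1418139_at gave -0.24, -0.17 and -0.01 in RARaKO vehicle and 0.34, 0.34 and 0.14 in WT vehicle. The groups did not overlap, and the difference of -0.41 ± 0.10 passed the threshold. With atRA the difference was -0.35 ± 0.10 (adjusted p = 0.0766). Probe set 1418140_at differed by -0.20 ± 0.09 in vehicle (adjusted p = 0.290) and -0.27 ± 0.09 in atRA (adjusted p = 0.120). The others, 1418141_at and 1448974_at, differed by -0.10 ± 0.09 and 0.02 ± 0.10 in vehicle and their arrays overlapped. The mean of the 4 probe sets differed by -0.17 in vehicle (adjusted p = 0.199), so the call of Dcx rests on a single probe set. It was also lost without RARaKO vehicle sets 2 or 3, WT vehicle sets 2 or 3, WT atRA sets 2 or 4, or RARaKO atRA set 3 (adjusted p up to 0.162). In the responses to atRA the 4 probe sets ranged from -0.15 to 0.21 in WT and from -0.09 to 0.13 in RARaKO, and none passed.

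**Figure D3:**
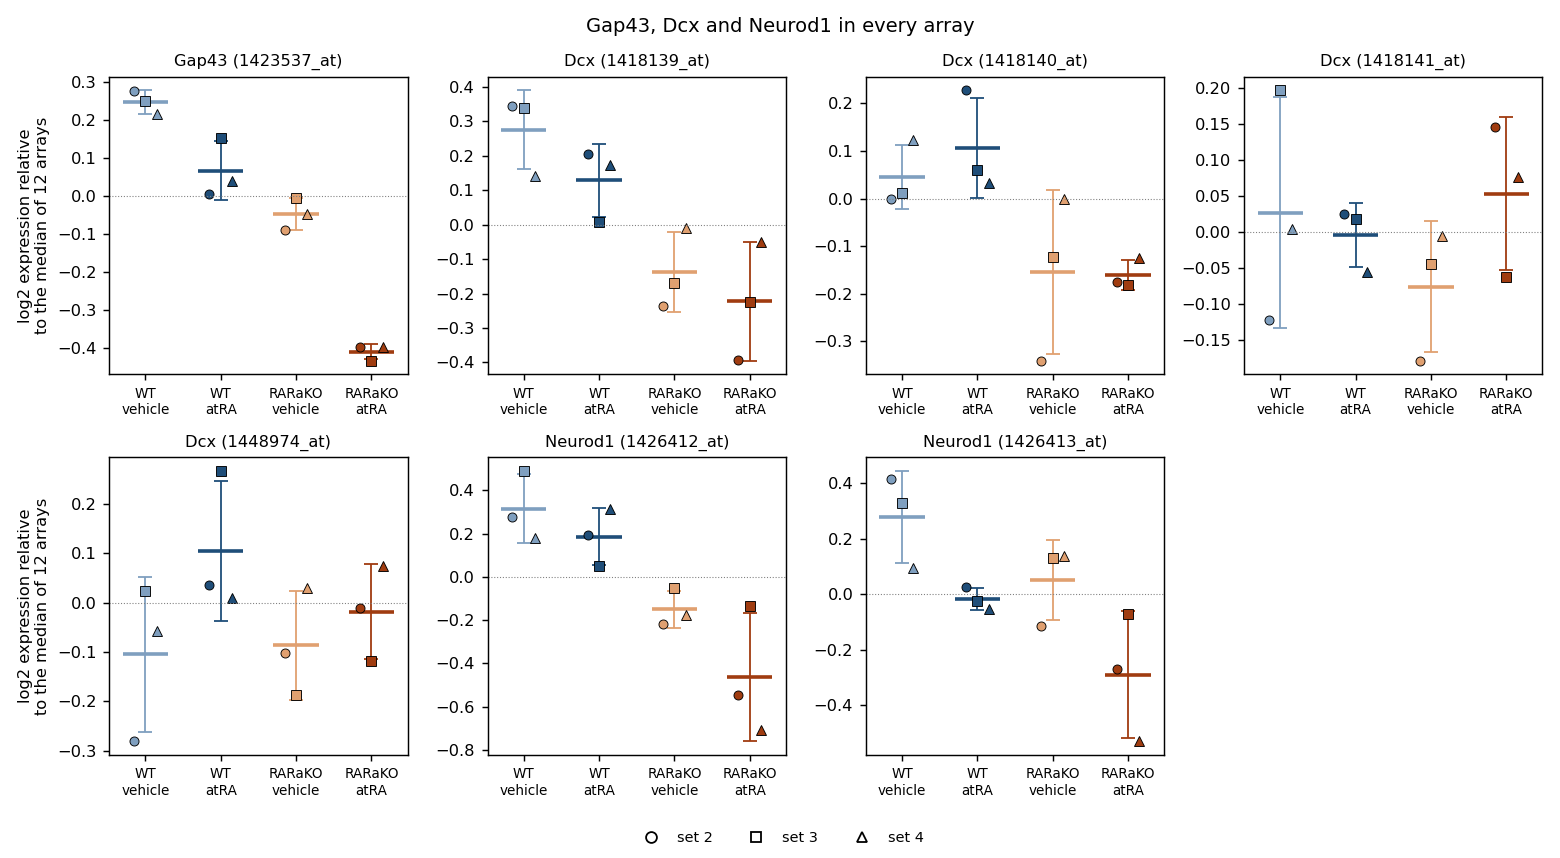
Log2 expression relative to the median of the 12 arrays (y axis, its own scale in each panel) of Gap43, the 4 probe sets of Dcx and the 2 of Neurod1 in the 4 groups (x axis); symbols are single arrays by set, bars the mean with its SD. The RARaKO atRA arrays of Gap43 lie between -0.43 and -0.40, below all others, while the groups of Dcx probe sets 1418141_at and 1448974_at overlap.

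Neurod1, a bHLH factor of differentiating neurons and endocrine cells, was lower in RARaKO. Probe set 1426412_at gave -0.55, -0.13 and -0.71 in RARaKO atRA and 0.19, 0.05 and 0.31 in WT atRA. In vehicle it gave -0.22, -0.05 and -0.18 in RARaKO and 0.28, 0.49 and 0.18 in WT. All 6 RARaKO arrays thus lay below all 6 WT arrays, with RARaKO atRA set 3 well above the other arrays of its group. In atRA the difference was -0.65 ± 0.13 and passed the threshold, 1.57-fold lower. In vehicle it was -0.47 ± 0.13 (adjusted p = 0.0841). That adjusted p was 0.0476 with the set number as a block, 0.0365 with the fit on these 6 arrays and 0.0494 with array weights, all of which passed. It did not pass with quantile normalisation, a robust prior or the mean of both probe sets. With a single array left out, the vehicle difference did not pass in 11 of 12 fits (adjusted p up to 0.247). The second probe set, 1426413_at, differed by -0.23 ± 0.12 in vehicle (adjusted p = 0.382) and -0.27 ± 0.12 in atRA (adjusted p = 0.239), and its arrays overlapped in vehicle.

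The Neurod1 call in atRA was lost without set 2 or set 4 of either genotype (adjusted p up to 0.0865) and when the fit held these 6 arrays alone (adjusted p = 0.0633). With atRA, 1426412_at differed by -0.13 ± 0.13 in WT (adjusted p = 0.917) and -0.31 ± 0.13 in RARaKO (adjusted p = 0.555). For 1426413_at these differences were -0.30 ± 0.12 (adjusted p = 0.561) and -0.34 ± 0.12 (adjusted p = 0.427).

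Neurog3, the bHLH factor that starts the endocrine lineage of the pancreas and also acts in the nervous system, fell with atRA. Probe set 1432034_at gave 0.51, 0.12 and 0.32 in WT vehicle and -0.27, -0.41 and -0.12 in WT atRA. In RARaKO it gave 0.19, 0.38 and 0.25 with vehicle and -0.25, -0.33 and -0.22 with atRA. Treated and untreated arrays did not overlap in either genotype. It fell in WT by 0.59 (± 0.10), or 1.50-fold, and passed the threshold there. In RARaKO the difference was -0.54 ± 0.10 (adjusted p = 0.0521), and the adjusted p was 0.0390 with the set number as a block. Other settings put this adjusted p on both sides of the threshold. It was 0.0472 with array weights, 0.0492 with quantile normalisation and 0.0278 with the mean of both probe sets, but 0.0535 with a robust prior and 0.0958 with the fit on these 6 arrays.

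Probe set 1422312_a_at of Neurog3 gave 0.58, 0.15 and 0.44 in WT vehicle and -0.10, -0.24 and -0.09 in WT atRA. Its WT difference of -0.54 ± 0.10 passed the threshold, and that in RARaKO was -0.48 ± 0.10 (adjusted p = 0.118). The 2 probe sets thus differed little, and the responses of the genotypes differed by 0.05 ± 0.14 on 1432034_at and 0.05 ± 0.15 on 1422312_a_at (adjusted p = 1.00 for both). The genotypes themselves differed by -0.04 ± 0.10 in vehicle (adjusted p = 0.904) and 0.0030 ± 0.10 in atRA (adjusted p = 0.992) on 1432034_at. The WT call of 1432034_at was lost without WT vehicle sets 2 or 4 or WT atRA sets 2 or 3 (adjusted p up to 0.0978). That of 1422312_a_at was lost without each array but WT vehicle set 3 and RARaKO atRA set 2 (adjusted p up to 0.191). When the fit held the 6 WT arrays alone the adjusted p was 0.0912 and 0.118.

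Sox3, the X-linked SoxB1 factor of neural progenitors, rose with atRA on probe set 1435192_at. The WT arrays gave -0.58, -0.33 and -0.47 with vehicle and 0.19, 0.59 and 0.44 with atRA. In RARaKO they gave -0.40, -0.10 and -0.24 with vehicle and 0.10, 0.48 and 0.45 with atRA. In each genotype and set the atRA array lay above its vehicle array, and set 2 was the lowest of each group. The rise in WT was 0.86 ± 0.12, or 1.82-fold, and the call held without any single array. In RARaKO the difference was 0.59 ± 0.12, or 1.50-fold (adjusted p = 0.104). With the set number as a block that adjusted p was 0.0016, which passed. Without RARaKO atRA set 2 the difference was 0.71 and passed too (adjusted p = 0.0456), while the fit on these 6 arrays gave 0.286.

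The 2 responses of Sox3 differed by -0.27 ± 0.18 (adjusted p = 1.00), so the data do not show that they were unequal. Its genotypes differed by 0.21 ± 0.12 in vehicle (adjusted p = 0.470) and -0.06 ± 0.12 in atRA (adjusted p = 0.844). The other probe set, 1450485_at, gave -0.11, -0.01 and 0.15 in WT vehicle and -0.05, 0.14 and 0.14 in WT atRA. Its groups overlapped and its response was 0.07 ± 0.09 in WT (adjusted p = 0.951) and 0.16 ± 0.09 in RARaKO (adjusted p = 0.723). The rise of Sox3 therefore rests on 1435192_at, which lay at a level of 8 or more, while 1450485_at lay between 4 and 8.

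**Figure D4:**
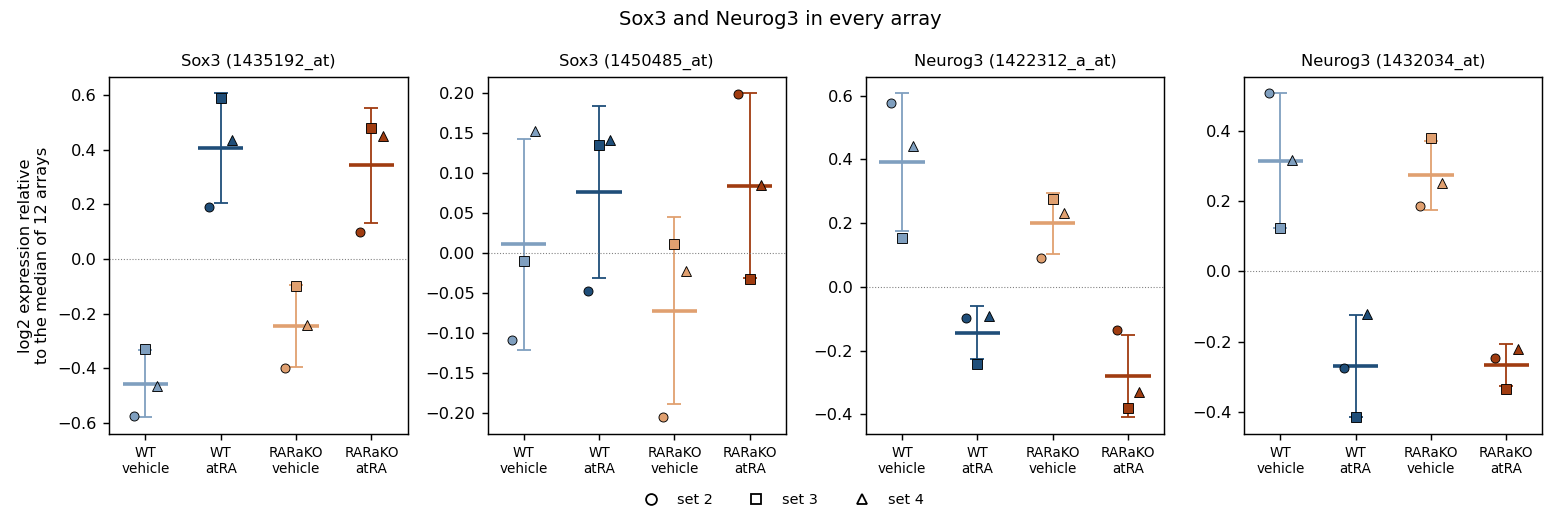
Log2 expression relative to the median of the 12 arrays (y axis, its own scale in each panel) of the 2 probe sets of Sox3 and the 2 of Neurog3 in the 4 groups (x axis); symbols are single arrays by set, bars the mean with its SD. On Sox3 probe set 1435192_at the 6 atRA arrays lie between 0.10 and 0.59 and the 6 vehicle arrays between -0.58 and -0.10, and both Neurog3 probe sets show the opposite order.

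Whether the genotype altered the response was tested for all 14 probe sets as the difference of the responses. It is made from the same group means as the comparisons above, so it is not independent of how the 14 were picked. None passed (limma, smallest adjusted p = 1.00), and 0 of the 14 had an unadjusted p under 0.05, with 0.0% of all probe sets called and 3.11% under 0.05 unadjusted.

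The wider gene lists of these roles were, like the members they hold, chosen with earlier results of these data known. The p-values of the genes named from them describe these genes and do not test them afresh. Of 30 genes of the neuronal cytoskeleton and growth cone, 5 were higher and 2 lower in RARaKO in vehicle, where 3.01% of all probe sets passed; 4 of these 7 are members. The median difference was -0.02 over the list and -0.02 over all 16509 genes. Beside Stmn2, Tubb3, Dcx and Gap43 these were Tubb2a, another beta-tubulin (0.57 ± 0.07, adjusted p = 4.90e-04), Nefh, the heavy neurofilament (0.60 ± 0.12, adjusted p = 0.0169), and Robo1, an axon guidance receptor (0.49 ± 0.11, adjusted p = 0.0256). In atRA 4 were higher and 1 lower, where 3.12% of all probe sets passed. Tubb2a at 0.39 ± 0.07 and Robo1 at 0.45 ± 0.11 were among them, while Nefh differed by 0.43 ± 0.12 (adjusted p = 0.0761). With atRA 1 gene of this list rose in WT, Nrp1, a semaphorin receptor of growth cones (1.13 ± 0.11, adjusted p = 3.64e-04). It rose in RARaKO as well (0.81 ± 0.11, adjusted p = 0.00858), where Gap43 was the 1 that fell.

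Of 18 proneural and neuronal transcription factors 1 passed between genotypes in vehicle, 2 in atRA and 1 for atRA in WT. Over all probe sets 3.01%, 3.12% and 0.569% passed. Ebf1 was the other called gene beside Neurod1 and Neurog3. Ebf1, a helix-loop-helix factor that acts after the proneural genes, was lower in RARaKO by 0.60 (± 0.13) in vehicle (adjusted p = 0.0241) and by 0.84 (± 0.13) in atRA (adjusted p = 0.00338). Of 24 partners and inhibitors of bHLH factors 1 passed, Id4, an Id protein gene. It fell with atRA by 0.63 (± 0.08) in WT (adjusted p = 0.00276) and by 0.45 (± 0.08) in RARaKO (adjusted p = 0.0444). In these responses 0.569% and 0.263% of all probe sets passed. The list medians in these responses were -0.09 in WT and -0.04 in RARaKO, against -0.01 over all genes in each.

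Of 31 genes of neural progenitors Sox3 was the 1 that rose with atRA, in WT, where 0.484% of all probe sets rose. Between genotypes 2 were lower in vehicle and 1 in atRA, against 1.16% and 1.51% of all probe sets. Cdh2, the neural cadherin, was lower in RARaKO by 0.51 (± 0.10) in vehicle (adjusted p = 0.0177) and by 0.59 (± 0.10) in atRA (adjusted p = 0.00789). Pou3f1, a POU factor of early neural cells, was lower by 0.30 (± 0.07) in vehicle (adjusted p = 0.0449), and in atRA it differed by -0.25 ± 0.07 (adjusted p = 0.0832). Of 26 genes of neuronal RNA binding, synapse and secretion only Elavl4, which encodes a neuronal RNA-binding protein, passed. It was higher in RARaKO by 0.48 ± 0.10 in vehicle (adjusted p = 0.0259) and 0.66 ± 0.10 in atRA (adjusted p = 0.00381). Of the 6 measured genes nearest to Elavl4 on chromosome 4, 2 also passed in vehicle, Faf1 by 0.42 and Spata6 by 0.49. In atRA 1 passed, Faf1 by 0.44. These were higher in RARaKO, as Elavl4 was. Over all probe sets 3.01% passed in vehicle and 3.12% in atRA. The 6 differences lay between -0.09 and 0.51 in vehicle and between -0.10 and 0.44 in atRA. Whether Elavl4 shares its difference with this region was not tested.

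None of the 42 measured genes that stand nearest to the 7 members in gene order, 3 on each side, passed between genotypes in vehicle, or with atRA in either genotype. Their differences lay between -0.32 and 0.34 in vehicle, -0.44 and 0.31 in the WT response, and -0.34 and 0.43 in the RARaKO response. At an unadjusted p under 0.05 (limma) there were 4 of the 42 in vehicle, where 15.3% of all probe sets were, 7 in the WT response (7.27% of all) and 6 in the RARaKO response (8.2% of all). In atRA 1 passed between genotypes, 3830417A13Rik near Sox3, by 0.59 (adjusted p = 0.00816), and 3 of the 42 had an unadjusted p under 0.05 (17.9% of all). For Stmn2 the nearest genes Il7 and Hey1 differed by 0.11 (adjusted p = 0.743) and 0.02 (adjusted p = 0.958) between genotypes in vehicle.

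Likeness of pattern was measured as the root mean square difference over the 12 arrays, in log2 units, between a member's probe set and the probe set chosen for each other gene. Nearest to Stmn2 probe set 1423280_at, whose own root mean square was 0.804, were Sema3e, a semaphorin gene, at 0.301, Tusc1 at 0.315 and Sfmbt2 at 0.318. Nearest to 1423281_at (1.11) were Rpl39l at 0.436, Usp17la at 0.501 and Sema3e at 0.585. For Sox3 probe set 1435192_at (0.398) they were H2-Bl at 0.143, Radil at 0.167 and Grasp at 0.169. For Neurog3 probe set 1432034_at (0.302) they were Id4 at 0.114, Tex15 at 0.131 and Ccn4 at 0.138, and Id4 was also the nearest to 1422312_a_at, at 0.108. These distances share the same 12 arrays and describe them only.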

How the data were processed

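Expression was measured on 12 Affymetrix mouse arrays (total RNA, 5 µg per cRNA preparation, per the labels' protocols). The deposited log2 values were made with GCRMA, per the submitters' processing notes; its version is not given in the sources used here. As read from the deposited values, the median over 12 arrays is 0 for each probe set, so levels are lost, and no label states the log base, which leaves p-values as they are but sets the folds. The decimals keep single-precision steps that class the lost level (8 or more, or 4 to 8), read from 8 arrays per probe set.

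The 61 control probe sets of 37661 were dropped, which left 37600 to test. Platform annotation named 30488 with a single symbol, 784 with several and 6328 with none; only the first were named. The limma 3.58.1 fit in R 4.3.3 (lmFit, eBayes; 8 residual and 4.60 prior degrees of freedom) held all 12 arrays and a mean for each group, without the set. Its two-sided p-values were adjusted over the 37600 probe sets (Benjamini-Hochberg). The fit was tested on simulated data.

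Members and lists were chosen with earlier results of these data known. Named were all probe sets of the 7 members, up to 4 other called genes per list with the smallest p, the 3 nearest genes of Stmn2, Sox3 and Neurog3, and check genes. For a list gene with several probe sets 1 was used, by the highest level class, ties going to the type that cross-hybridises least and then to the smallest number. Same-numbered arrays deviated together between genotypes in vehicle (correlation over probe sets 0.116 to 0.238), in WT (0.101 to 0.392) and in RARaKO (0.117 to 0.497), which was taken as pairing from the data; between genotypes in atRA the lowest was 0.0375, and the block is given in the closing section. Alternatives were the set as a block, fits on the compared groups alone, each array or set left out, array weights, quantile normalisation, a robust prior, the high level class alone, and gene means.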

Additional observations from a re-analysis of the deposited data

How the results depend on the processing

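None of the 14 called member values changed sign in any of the 22 alternative settings, and 6 held without any single array: both Stmn2 probe sets in both treatments, Gap43 between genotypes in atRA, and Sox3 in WT. Without the whole of set 2, 3 or 4, the calls lost were 8, 9 and 9 of the 14. The Sox3 call was lost without set 3 and without set 4, where 0 members passed for atRA in WT. Without set 3 only 1 member probe set passed in vehicle, so the Stmn2 probe sets did not both hold there. Of the 56 values not called, 26 changed sign and 4 were called in some setting. With an array or a whole set left out the count of member probe sets called lay between 1 and 5 between the genotypes in vehicle, 2 and 5 in atRA, 0 and 3 for atRA in WT, 0 and 2 for atRA in RARaKO, and at 0 for the difference of the responses. In these fits the calls over all probe sets lay between 217 and 1426, 320 and 1124, 40 and 226, 2 and 88, and at 0, in the same order. With the set as a replicate block the count for atRA in RARaKO was 3 in place of 1. Between genotypes in atRA it was 5 as without the block, and over all probe sets 2344 in place of 1173. There the same-numbered arrays of sets 2 and 3 deviated together (correlation 0.287 and 0.144). For set 4 the correlation was 0.0375, below the highest with another set (0.124). The block changed no other member call than those given above. In fits on the compared groups alone the count was 1 for atRA in WT and 0 in RARaKO, and over all probe sets 592 between genotypes in atRA, 171 for atRA in WT and 14 in RARaKO. With array weights it was 2 for atRA in RARaKO, as with quantile normalisation, and over all probe sets array weights gave 2071 between genotypes in vehicle and 382 for atRA in WT. With only the high level class, which holds 2 of the 14, it was 1 in vehicle, 1 in atRA and 1 for atRA in WT, since fewer members were tested. With gene means, counted in genes, it was 3 in vehicle and 2 for atRA in RARaKO. Other causes were not tested. The level classes and centred values do not show signal over background, so what dim probe sets limit could not be measured.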

Other observations

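A list drawn up for islet endocrine fate, in which Neurog3 and Neurod1 act, and a list of the REST repressor complex were read as well. Both were chosen with earlier results of these data known. The islet list is not particular to islets, since it shares genes with the neuronal lists. Of its 17 measured genes 1 was lower in RARaKO in vehicle, Nkx6-3, a homeobox gene, by 1.27 (± 0.20, limma adjusted p = 0.00344). Over all probe sets 3.01% passed in vehicle and 3.12% in atRA. In atRA Nkx6-3 was lower by 1.35 (± 0.20, adjusted p = 0.00235) and Ptf1a, a pancreatic bHLH factor gene, was higher by 0.37 ± 0.08 (adjusted p = 0.0320). None of the 17 passed with atRA in either genotype (limma), with 0 in WT (7.27% of all probe sets) and 4 in RARaKO (8.2% of all) at an unadjusted p under 0.05. The list medians between genotypes were 0.04 in vehicle and 0.08 in atRA, against -0.02 and -0.0096 over all genes.

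None of 14 measured genes of the REST repressor complex passed (limma) in any of the 5 comparisons; at an unadjusted p under 0.05 there were 3 between genotypes in vehicle (15.3% of all probe sets), 4 in atRA (17.9%), 1 for atRA in WT (7.27%), 1 in RARaKO (8.2%) and 0 for the difference of the responses (3.11%). Their differences lay between -0.16 and 0.23 between the genotypes in vehicle, -0.26 and 0.32 in atRA, -0.16 and 0.10 for atRA in WT, and -0.20 and 0.14 for atRA in RARaKO.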
